A study of Mus musculus with 16 samples.

Results

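The genes described here are the nuclear-encoded genes of the mitochondrial respiratory chain and ATP synthase, that is, the genes whose symbols begin with Ndufa, Ndufb, Ndufc, Ndufs, Ndufv, Uqcr, Cox4 to Cox8 or Atp5, together with Sdha, Sdhb, Sdhc, Sdhd, Cyc1 and Cycs. They were picked by symbol alone, and 96 of the 22392 genes in the count table matched. Complex I had 45 of them (7 core subunits, 30 accessory subunits and 8 assembly factors), complex II 4, complex III 9, cytochrome c 1, complex IV 20 and complex V 17. Measurements came from Hepa1-6, a mouse hepatoma cell line, by ribosome profiling (Ribo-seq, which counts the messenger RNA fragments that ribosomes protect) and by RNA-seq from the same lysates.

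The wild-type (WT) line was compared with 3 lines, KO1, KO2 and KO3, that lack exon 5 of Eef1d. This gene encodes a subunit of the elongation factor complex that recharges eEF1A with GTP, and exon 5 is included or skipped by alternative splicing. Each KO line was 1 single-cell clone that had been transfected with Cas9 and a pair of guide RNAs and selected with puromycin. KO1 and KO2 were made with the same pair of guides and KO3 with another. No other treatment was given, and each line had 2 replicates per assay, 16 libraries in all. The question of the comparison was whether loss of the exon alters RNA abundance or translation. All 3 clones were compared with the same 2 WT libraries per assay, so the 3 comparisons are not independent of each other.

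The respiratory chain passes electrons from NADH (complex I) and succinate (complex II) through ubiquinone to complex III, by cytochrome c to complex IV, and finally to oxygen. Complexes I, III and IV pump protons across the inner mitochondrial membrane, and complex V, the ATP synthase, uses their return to make ATP. Most subunits are encoded in the nucleus, made on cytosolic ribosomes and imported, while a small set of core subunits is encoded and made inside the mitochondrion. Subunits from both genomes must be assembled together, which dedicated assembly factors assist. Several complex IV and V subunits have tissue-specific alternative isoforms, among them forms restricted to heart, skeletal muscle, lung or testis.

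With 1 transcript counted per gene, the RNA-seq libraries held 10493029 to 12946815 counts and the Ribo-seq libraries 1138944 (KO1 replicate 2) to 4886757 (KO1 replicate 1). Respiratory chain genes took 1.34 to 1.60% of the RNA counts and 1.79 to 2.05% of the footprint counts of a library. The summed RNA level of 10 hepatocyte genes was 2384 to 2561 CPM (here counts scaled by the library total alone) in WT, 942 to 946 in KO1, 1836 to 1992 in KO2 and 3409 to 3568 in KO3, and the summed level of each marker list of another cell type was at most 12.3 CPM. The hepatocyte genes moved in both directions. Alb, at 791 and 749 CPM in WT and 1713 and 1830.4 in KO3, carried much of the sum together with Afp and Trf. Ttr, Apoa1, Apoa2 and Serpina1a added little, each with at most 3.35 CPM in the WT RNA libraries. Of the 7 hepatocyte genes tested in KO3, 3 rose and 4 fell, the falls being those of Hnf4a, Trf, Apob and Fgb. The part of this difference between the lines in the results below was not tested. The counts of the Eef1d transcript with exon 5, given relative to those of the transcript without it, were 116% in the WT RNA libraries and 89.8 to 92.6% in the KO libraries. These transcripts share most of their reads, so the ratio bears on the deletion only in part. Fewer cells of a kind and less RNA per cell cannot be told apart in such bulk samples.

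In WT cells, respiratory chain messages were abundant and gave many footprints per codon. Between genes, levels were set per length, as CPM (for these genes, counts scaled by library total and TMM) per 100 counted codons averaged over the WT replicates. The median of the 89 respiratory chain genes in the comparison was 61.9 for RNA against 7.01 for all 11288 genes compared, and 94.9 against 5.51 for footprints. By RNA, 82 of the 89 lay in the top 25% of genes and 61 in the top 10%. These messages are short, with a median of 134 counted codons against 450 for all genes. All 1612 genes with 90 to 204 counted codons had medians of 18.7 for RNA and 20.5 for footprints.

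The 5 complexes differed in their RNA level in WT. Complex IV had the highest median RNA level per 100 codons, 195 CPM, followed by complex V with 129, complex III with 68.6, complex I with 48.1 and complex II with 38.5. Cox6c, a nuclear-encoded complex IV subunit, was highest of all with 463, and Atp5b, the catalytic beta subunit of the ATP synthase, followed with 438. Cycs, cytochrome c itself, stood at 203 and Uqcrq, a small complex III subunit, at 237. Within complex I, the 8 assembly factors had a median of 6.09, near that of the median gene, against 53.8 for accessory and 33.9 for core subunits. Ndufaf1, an assembly factor of complex I, was the lowest of that complex with 4.56, and Ndufb9, an accessory subunit, the highest with 161. The lowest values in the other complexes were 33.7 for Uqcrc2, 32.8 for Sdhb and 51.2 for Atp5c1. Among the 12 complex IV genes classed here as generally expressed, the lowest was 32.6 for Cox7a2l. Of the 30-base windows in the Cox7a2l coding sequence, 80.5% have an exact copy elsewhere (described below).

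**Figure D1:**
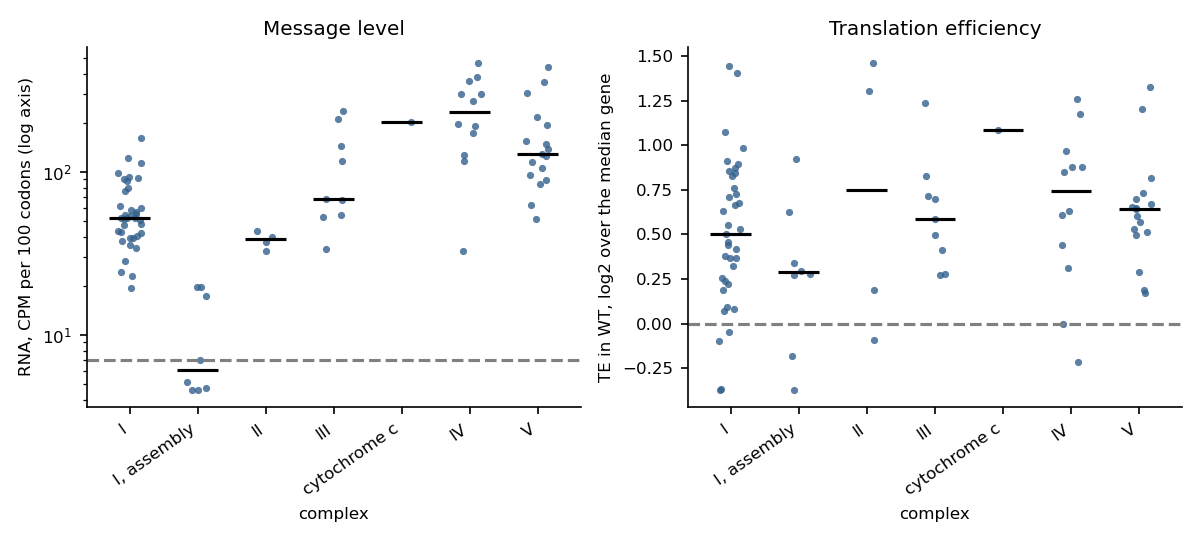
Levels of the respiratory chain genes in WT Hepa1-6 cells by complex: RNA as CPM per 100 counted codons on a log axis (left) and translation efficiency in log2 relative to the median gene (right). Each point is 1 gene, with RNA as the mean of 2 replicates and translation efficiency from their summed CPM. Bars give the median of each group. The complex I assembly factors form a group of their own, so the complex I bar covers only core and accessory subunits. The dashed line on the left is the median of all genes, 7.01 CPM, and Ndufa4l2, which had no RNA counts, is left out.

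Translation efficiency (TE), the ratio of footprints to RNA, was expressed in log2 relative to the median gene of the same replicate. The respiratory chain genes had a median TE of 0.58, and 79 of the 88 with RNA counts lay above the median gene. The replicates gave 0.576 and 0.568. Complex II had a median TE of 0.75, complex IV 0.74, complex V 0.65, complex III 0.59 and complex I 0.44. Among 1533 other genes with 90 to 204 counted codons the median TE was 0.40. The height differed with the copies of a gene in the genome, described below, with a median of 0.64 for the 18 members that have copies for more than 50% of their windows and 0.37 for the 29 with no copied window, which lies slightly under that of other genes of similar length. Members with no copied window were longer, with a median of 186.5 counted codons against 111, and less abundant, with 39.3 against 127 CPM per 100 codons for RNA. The plot of WT levels by complex shows that TE varied within each complex as well. Across the respiratory chain genes TE values of the 2 WT replicates had r = 0.92, and log2 RNA and footprint levels r = 0.96, both over genes measured in the same libraries.

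The genes at either end of the TE range came from several complexes, and their start codon contexts are shown because translation initiation depends on the bases around the AUG. A purine at position -3 and G at +4, counted from the A of the AUG as +1, form the Kozak context. The highest TE values were those of Sdhc (1.46), a membrane anchor of succinate dehydrogenase, Ndufb1-ps (1.44), Ndufc2 (1.41), an accessory complex I subunit, Atp5g3 (1.33), a gene for the c-ring subunit of ATP synthase, Sdhd (1.31), the other membrane anchor of complex II, and Cox7b (1.26), a small complex IV subunit. The lowest were Ndufb9 (-0.38) and Ndufa6 (-0.37), accessory subunits of complex I, and Ndufaf4 (-0.37), an assembly factor. Cox4i1 (-0.22), the general isoform of complex IV subunit 4, and Sdhb (-0.09), the iron-sulphur subunit of complex II, were the lowest of their complexes. In complex III the range ran from 0.27 for Uqcr10 to 1.24 for Uqcrb, and in complex V the lowest value was 0.17 for Atp5j2. Sequences are from the transcripts of the reference annotation, 5′ to 3′, with the start codon in capitals. From 5 of the genes with high TE, they read as follows.
Sdhc: gaactcaagATGgctg
Ndufc2: tgcctcaagATGatga
Atp5g3: ggaagaaagATGttcg
Sdhd: gaaagcgacATGgcgg
Cox7b: gtctccgcgATGttgc
From 5 of the genes with low TE, they read as follows.
Ndufb9: ccggacgctATGgcgt
Ndufa6: ctcggcaagATGgcgg
Ndufaf4: gatttagagATGgggg
Cox4i1: ggtggcagaATGttgg
Sdhb: ggagccaaaATGgcgg

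A purine at -3 was present in 86 of 88 respiratory chain genes (97.7%) and in 86.7% of 10759 genes. G at +4 was as frequent in the respiratory chain genes (54.5%) as in all (53.9%). The 47 members with both bases and a TE had a median of 0.46 and the 40 without both 0.63. Over all genes the order was the other way, with 0.05 in 4994 genes with both bases and -0.04 in 5667 without. Among the contexts printed above, both bases occur in genes with low TE (Ndufb9, Ndufa6, Ndufaf4 and Sdhb) and with high TE (Sdhc and Sdhd). G at +4 is missing in genes with high TE (Ndufc2, Atp5g3 and Cox7b) and with low TE (Cox4i1).

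Tissue-specific isoforms were close to undetected. Cox6b2 and Cox7b2 had no count in any library, while Cox8c had 1, Cox8b 2, Cox6a2 10, Cox4i2 18 and Cox7a1 39 counts over all 16 libraries. A count of 0 limits only what this depth could show. The liver-type or general isoforms carried the signal instead, with Cox4i1 at 571 and 581 CPM in the WT RNA libraries against at most 0.47 for Cox4i2 in any library, the isoform known from lung. Cox6a1, the general form of subunit 6A, stood at 278 CPM in each WT RNA library, and Cox7a1, the muscle form of subunit 7A, at no more than 0.64 CPM in any library. Ndufa4l2, a relative of the complex IV subunit Ndufa4, had no RNA count in any of the 8 RNA libraries but 64 footprint counts in all. After the filter on low counts, 88 of the 96 genes were tested for RNA and for footprints.

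Several of these genes have near-identical copies elsewhere in the genome, which can affect their counts. Of 95 members whose coding sequence was scanned in windows of 30 bases, 58 had at least 1 window with another exact copy, 18 had copies for more than 50% of windows, and 8 for every window (Atp5g1, Atp5g2, Atp5l, Atp5md, Cox7c, Cycs, Ndufab1 and Ndufb4). All 412 windows of Atp5g2, a c-ring gene, also occur in the processed copies Gm10231 on chromosome 17 and Gm10175 on chromosome 7. These 8 genes still had 506 to 2249 RNA counts in WT replicate 1. Their counts are uncertain in level, and the RNA calls below are also counted for the genes with at most 50% of windows copied.

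The promoters of respiratory chain genes are known for binding sites of NRF1, of the ETS factor GABP (also called NRF2) and of YY1, and are shown because the genes of a complex lie scattered over the genome. Promoters (250 bases before to 50 after the start, RefSeq, GRCm38.p6) were found for 78 members, and letters were searched on both strands with overlaps between motifs allowed. GCGCATGCG, the core of the NRF1 site, was present in 11 members (14.1%) against 2.50% of all 16828 promoters. CCGGAAG, an ETS core, was present in 18 (23.1%) against 12.3%, and AAGATGGC, a YY1 core, in 10 (12.8%) against 3.26%. At least 1 of the 3 motifs was found in 34 members (43.6%) and in 16.8% of all promoters. Examples of the 100 bases before the start are given 5′ to 3′ on the gene's strand, with the motif in capitals (on either strand, with a flanking base where 2 matches overlap): the minus-strand genes Cycs at chr6:50566570-50566669, Atp5g2 at chr15:102671048-102671147, Ndufa8 (an accessory complex I subunit) at chr2:36049339-36049438 and Uqcr11 (the smallest complex III subunit) at chr10:80406822-80406921.
Cycs: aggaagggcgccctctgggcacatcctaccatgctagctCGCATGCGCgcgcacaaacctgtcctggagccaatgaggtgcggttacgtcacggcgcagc
Atp5g2: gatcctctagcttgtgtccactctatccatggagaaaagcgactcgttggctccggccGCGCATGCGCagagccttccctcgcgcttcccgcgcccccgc
Ndufa8: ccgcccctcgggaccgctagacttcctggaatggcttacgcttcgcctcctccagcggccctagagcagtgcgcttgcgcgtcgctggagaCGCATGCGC
Uqcr11: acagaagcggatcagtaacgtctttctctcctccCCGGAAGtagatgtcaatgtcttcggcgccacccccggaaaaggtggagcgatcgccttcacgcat

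The RNA changes in the clones, described next, were also summarised by motif. Among the tested members matched to a promoter, the median log2 change of the 11 with the NRF1 core was 0.15 for KO1, -0.05 for KO2 and -0.06 for KO3, and that of the 63 without it 0.16, -0.04 and -0.01. For the ETS core the medians were 0.23, -0.08 and -0.02 with it and 0.15, -0.04 and -0.04 without it. For the YY1 core they were 0.30, -0.05 and 0.03 against 0.16, -0.04 and -0.03. These are descriptions over few genes, and no match says only that the letters are not in the window.

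RNA of the respiratory chain genes changed in all 3 clones, but in a different direction for different genes and clones. In KO1, RNA of 42 of the 88 genes tested rose and that of 14 fell (56 called, 63.6%, at an adjusted p under 0.05 by edgeR's quasi-likelihood test, against 46.7% of all genes tested). In KO2, 6 rose and 8 fell (14, or 15.9%, against 20.5% of all genes). In KO3, 19 rose and 22 fell (41, or 46.6%, against 45.4%). The share called lay above that of all genes in KO1 and below it in KO2. The median standard error (SE) of a log2 change was 0.069, 0.075 and 0.071 for the members in KO1, KO2 and KO3. For all genes it was 0.108, 0.111 and 0.106. A smaller SE lets smaller changes pass, and its part in the shares called was not tested. The median log2 change of the 88 genes was 0.16 for KO1, -0.03 for KO2 and -0.01 for KO3, against 0.00 for all genes in each. The count in KO2 depended on single libraries, with 6 called without WT replicate 1 and 9 without WT replicate 2. Among the 69 genes with at most 50% of windows copied, 43, 11 and 32 were called in KO1, KO2 and KO3.

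In complex I, the entry point for electrons from NADH, KO1 had 22 rises and 2 falls among the 45 genes, of which 17 rises were accessory subunits and 4 were core subunits. KO2 had 3 rises and 3 falls, and KO3 9 rises and 10 falls. These are 53.3%, 13.3% and 42.2% of its genes, against 46.7%, 20.5% and 45.4% of all genes tested. Rises alone were 48.9%, 6.67% and 20% of its genes, against 22.1%, 11.6% and 23.1% of all genes tested. Ndufa5, an accessory subunit of the matrix arm (chr6:24518666-24528013, positions in GRCm38 from here on), measured 55.8 and 54.5 CPM in WT, 88.7 and 81.0 in KO1, 61.6 and 58.5 in KO2 and, for KO3, 39.0 and 39.4. The KO1 libraries thus lay above and the KO3 libraries below both WT libraries, with no overlap. Its RNA rose by 0.62 ± 0.0788 (log2 ± SE) in KO1 with adjusted p = 2.81e-09 and fell by 0.49 ± 0.0912 in KO3 with adjusted p = 4.05e-06, while the KO2 value was 0.12 with adjusted p = 0.359.

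Ndufb6, an accessory subunit of the membrane arm (chr4:40270591-40279421), behaved alike, with 64.8 and 68.9 CPM in WT, 94.1 and 84.9 in KO1, 62.9 and 58.7 in KO2 and, for KO3, 48.1 and 44.8. It rose by 0.42 in KO1 (adjusted p = 7.57e-06) and fell by 0.53 ± 0.0867 in KO3 (adjusted p = 3.13e-07). KO2 lay below WT in both libraries, with a change of -0.14 that did not pass (adjusted p = 0.286). Ndufs7, a core subunit (chr10:80249452-80256792), fell by 0.36 ± 0.0816 in KO2, from 87.5 and 80.7 CPM in WT to 66.9 and 64.2 (adjusted p = 0.00267), and did not pass in KO1 or KO3.

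Ndufa10, an accessory subunit on chromosome 1, rose by 0.17 in KO1 and 0.24 in KO2 (adjusted p = 0.0229 and 0.00814) and fell by 0.18 in KO3 (adjusted p = 0.0215).

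Of the 8 assembly factors of complex I, only Ndufaf2 passed in KO1, with a rise of 0.40 (adjusted p = 0.00112). Ndufaf4 (chr4:24898083-24905001) had 32.6 and 31.1 CPM in WT, 34.0 and 31.0 in KO1, 31.6 and 27.2 in KO2 and, for KO3, 20.9 and 18.6, where it fell by 0.69 ± 0.118 (adjusted p = 8.87e-07). Ndufaf6 (chr4:11051045-11076204) fell there by 0.51 ± 0.135, from 23.2 and 22.1 CPM to 15.7 and 16.2 (adjusted p = 0.00124). For both genes the KO3 libraries were the lowest of the 8, with no overlap with the other lines. Ndufa13, an accessory subunit also known as GRIM-19 (chr8:69894180-69902558), was one of 2 respiratory chain genes that passed in all 3 clones in the same direction. Its RNA was 101 and 102 CPM in WT, 128 and 117 in KO1, 115 and 122 in KO2 and, for KO3, 135 and 139, above WT in every KO library, with rises of 0.27, 0.23 and 0.43 ± 0.0674 (adjusted p = 0.000973, 0.0216 and 1.02e-07).

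Complex II, which oxidises succinate, had 2 called genes of 4 in KO1, 1 in KO2 and none in KO3 (50%, 25% and 0%). In KO1, Sdha, its flavoprotein, rose by 0.19 (adjusted p = 0.00379), from 231 and 249.9 CPM to 279 and 268, and Sdhd, a membrane anchor, fell by 0.26 (adjusted p = 0.00732), from 67.1 and 62.5 to 53.6 and 54.4. In KO2 only Sdhc (chr1:171127165-171150603) passed, rising by 0.41 ± 0.0812 (adjusted p = 0.000785) from 64.02 and 62.9 CPM to 86.7 and 81.1. Sdhb passed in no clone, with 88.1 and 89.4 CPM in WT and 85.7 to 101 in the KO libraries.

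Complex III transfers electrons from ubiquinol to cytochrome c. Here KO1 had 3 rises and 4 falls among 9 genes, KO2 2 falls, and KO3 2 rises and 3 falls. These are 77.8%, 22.2% and 55.6% of its genes. Uqcrc1, a core protein of the matrix side (chr9:108936633-108949623), measured 254 and 251 CPM in WT, 186 and 176 in KO1, 238 and 251 in KO2 and, for KO3, 248 and 255. Only the KO1 libraries stood apart, and the fall there was 0.48 ± 0.0557 (adjusted p = 2.62e-10). Its partner Uqcrc2 (chr7:120635176-120659524) went from 153 and 144 CPM to 105 and 111 in KO1, a fall of 0.45 ± 0.0653 (adjusted p = 6.27e-08).

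Uqcr11 (chr10:80402997-80406830), whose promoter is printed above, had 69.2 and 65.5 CPM in WT, 102 in both KO1 libraries, 52.2 and 50.7 in KO2, and 63.4 and 65.9 in KO3. It rose by 0.60 ± 0.0732 in KO1 (adjusted p = 8.16e-10) and fell by 0.39 ± 0.0867 in KO2 (adjusted p = 0.00221), with KO3 close to WT. Cyc1, the haem-carrying cytochrome c1 (chr15:76343523-76346260), had 214 and 207 CPM in WT, 167 and 157 in KO1, 219.6 and 218 in KO2 and, for KO3, 254 and 238. It fell by 0.38 in KO1 (adjusted p = 2.29e-07) and rose by 0.22 in KO3 (adjusted p = 0.000819). Cycs (chr6:50562563-50566538), the mobile carrier between complexes III and IV, had 191 and 195 CPM in WT, 211 and 217 in KO1, 211 and 184 in KO2 and, for KO3, 151 and 134. It rose by 0.15 in KO1 (adjusted p = 0.0271) and fell by 0.44 ± 0.0626 in KO3 (adjusted p = 8.31e-09). All windows of Cycs have exact copies elsewhere, and its counts are uncertain in level.

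Complex IV is the terminal oxidase. Among its 12 genes classed here as generally expressed it had 7 rises and 4 falls in KO1, 2 rises in KO2, and 1 rise and 6 falls in KO3. These are 91.7%, 16.7% and 58.3% of the 12. Cox4i1 (chr8:120668222-120674207) was the other gene that rose in every clone, from 571 and 581 CPM in WT to 635 and 652 in KO1, 645 and 671 in KO2 and, for KO3, 714 and 716. Every KO library was above both WT libraries, with rises of 0.16, 0.19 and 0.31 ± 0.046 (adjusted p = 0.00213, 0.0056 and 1.83e-08). Cox7a2, the liver-type isoform of subunit 7A, fell by 0.41 in KO1 (adjusted p = 6.57e-06). Cox6b1 fell by 0.30 in KO1 (adjusted p = 0.000152), and Cox8a rose by 0.18 there (adjusted p = 0.0126) and fell by 0.20 in KO3 (adjusted p = 0.00463). Ndufa4, a complex IV subunit in spite of its name, had 221 and 211 CPM in WT, 271 and 274 in KO1, 236 and 208 in KO2 and, for KO3, 173 and 162. It rose by 0.34 in KO1 (adjusted p = 6.32e-07) and fell by 0.36 in KO3 (adjusted p = 2.87e-07).

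In complex V, the ATP synthase, KO1 had 8 rises and 3 falls among 17 genes, KO2 3 falls, and KO3 7 rises and 2 falls. These are 64.7%, 17.6% and 52.9% of its genes. Atp5j2, subunit f of the membrane part (chr5:145183698-145192062), showed the largest change of any respiratory chain gene tested, with 279.6 and 275 CPM in WT, 563 and 541 in KO1, 255 and 278 in KO2 and, for KO3, 285 and 288. Its RNA rose by 0.99 ± 0.048 in KO1 (adjusted p = 1.62e-24), and the other clones lay near WT. Of its windows 44.1% have an exact copy elsewhere.

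Called changes of the stalk subunits and of the catalytic head did not divide by clone. Atp5o, which joins head and peripheral stalk (chr16:91925214-91931687), had 189 and 199.7 CPM in WT, 144 and 143 in KO1, 200.3 and 191 in KO2 and, for KO3, 267 and 266. It fell by 0.44 ± 0.0596 in KO1 (adjusted p = 1.62e-08) and rose by 0.45 ± 0.057 in KO3 (adjusted p = 1.16e-10). Atp5j, a peripheral stalk subunit on the same chromosome (chr16:84827871-84835625), did likewise, falling by 0.44 ± 0.0706 in KO1 (adjusted p = 5.49e-07) and rising by 0.18 in KO3 (adjusted p = 0.026). Atp5d, the delta subunit of the central stalk (chr10:80142315-80145818), had 134 and 130.2 CPM in WT and 148 in both KO1 libraries. It had 90.3 and 99.7 in KO2, and 128 and 125 in KO3. This was a fall of 0.47 ± 0.0715 in KO2 (adjusted p = 3.62e-05), and a rise of 0.16 also passed in KO1. Atp5b (chr10:128083273-128090391) had 2256 and 2262 CPM in WT, 2747 and 2691 in KO1, 1834 and 1849 in KO2 and, for KO3, 2525 and 2466, passing in all 3 clones with changes of 0.27, -0.29 and 0.14. Atp5c1, the gamma subunit (chr2:10056030-10080510), rose by 0.50 ± 0.0612 in KO3 (adjusted p = 5.39e-11), from 149 and 145 CPM to 215 and 199.9. Of the c-ring genes, which encode the same mature protein, Atp5g3 rose by 0.35 in KO1 (adjusted p = 1.42e-07), Atp5g2 fell by 0.25 in KO3 (adjusted p = 0.00032) and Atp5g1 passed in no clone.

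**Figure D2:**
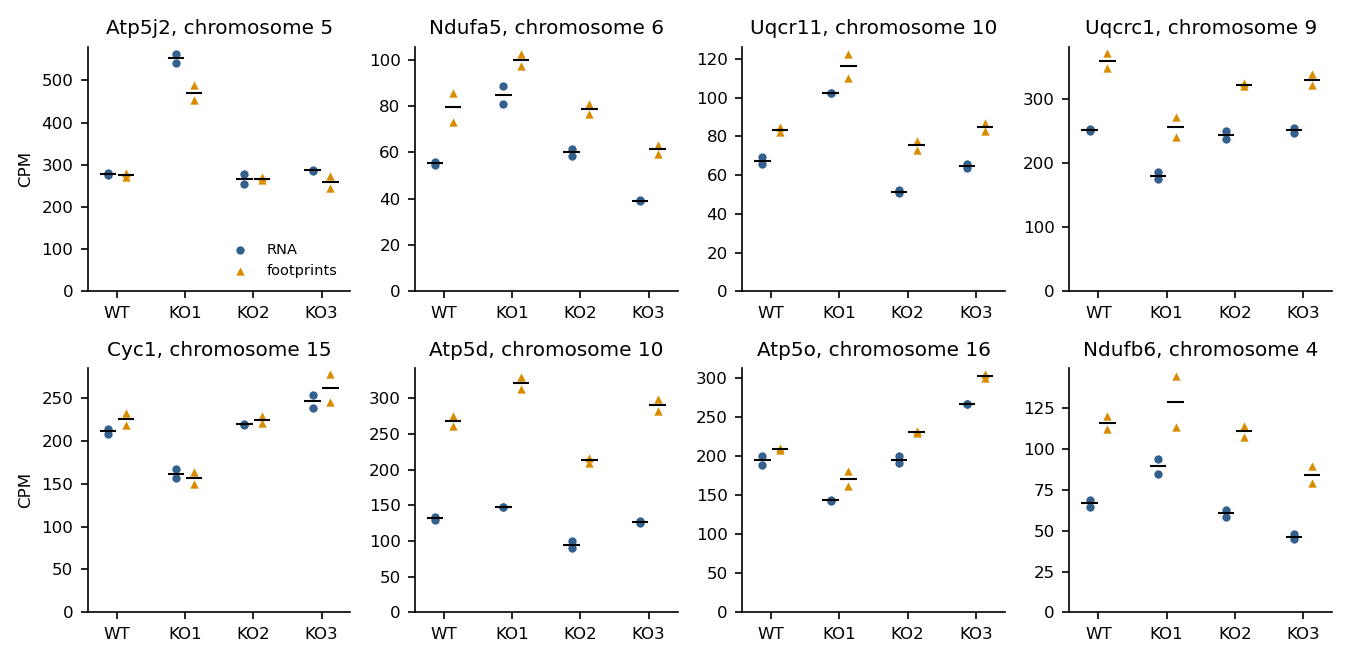
TMM-scaled CPM of 8 respiratory chain genes in every library of WT, KO1, KO2 and KO3, circles for RNA and triangles for footprints, bars for the mean of 2 replicates. Replicates of a line lie close together, and the line that stands apart differs from gene to gene, KO1 for Atp5j2 and Uqcrc1, KO2 for Atp5d, and KO1 and KO3 on opposite sides of WT for Atp5o, Ndufa5 and Ndufb6.

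Across the clones, 73 of the 88 genes (83.0%) passed for RNA in at least 1 clone, against 71.4% of all genes tested in the 3 clones, and 15 in none. In all 3 clones 6 passed (6.82%, against 7.92%), and of these Ndufa13 and Cox4i1 had the same direction throughout (2.27%, against 1.69%). Both lie on chromosome 8, whose other genes are described below. RNA of 22 genes (25%, against 20.1%) was called in opposite directions in a pair of clones, as the plot of 8 genes by library shows for Atp5o, Ndufa5 and Ndufb6. A test of whether the 3 clones differ from one another called 73 of the 88 genes for RNA, against 74.0% of all genes tested. Its contrast leaves WT out, but the WT libraries entered the fit.

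The direction of a gene's RNA change mostly went with its place in the genome on strongly shifted chromosomes. In KO1, 4 of 5 tested members on chromosome 7, 5 of 6 on chromosome 9 and 2 of 3 on chromosome 16 fell, and none on these chromosomes rose. There the median log2 change of all other genes was -0.44, -0.36 and -0.33, and 68.4%, 60.5% and 61.8% of them were called. In KO2, all 5 members on chromosome 10 (Atp5b, Atp5d, Ndufa12, Ndufs7 and Uqcr11) fell, where other genes had a median of -0.26 (43.1% called). On chromosome 1, 4 of 6 rose, where the median was 0.28 (48.4% called). On chromosome 8, 2 of 3 rose (Ndufa13 and Cox4i1), where the median was 0.26 (47.1% called). In KO3, 4 of 5 members on chromosome 6 fell (median of other genes -0.32, 64.7% called), and all 3 on chromosome 8 rose (median 0.22, 55.7% called). Some chromosomes went otherwise. On chromosome 15 in KO1 (median -0.19, 56.4% called), 2 of 5 members rose and 1 fell. On chromosome 8 in KO1 (median -0.03, 35.6% called), all 3 members rose, Ndufa13 and Cox4i1 among them. On chromosome 12 in KO2 (median -0.21, 26.2% called), 0 of 2 members were called. On chromosome 13 in KO3 (median 0.08, 45.5% called), 2 of 7 members rose and 2 fell. The shifts of other genes were alike in both replicates, at -0.42 and -0.45 for chromosome 7 in KO1, -0.25 and -0.26 for chromosome 10 in KO2, and 0.21 and 0.22 for chromosome 8 in KO3.

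**Figure D3:**
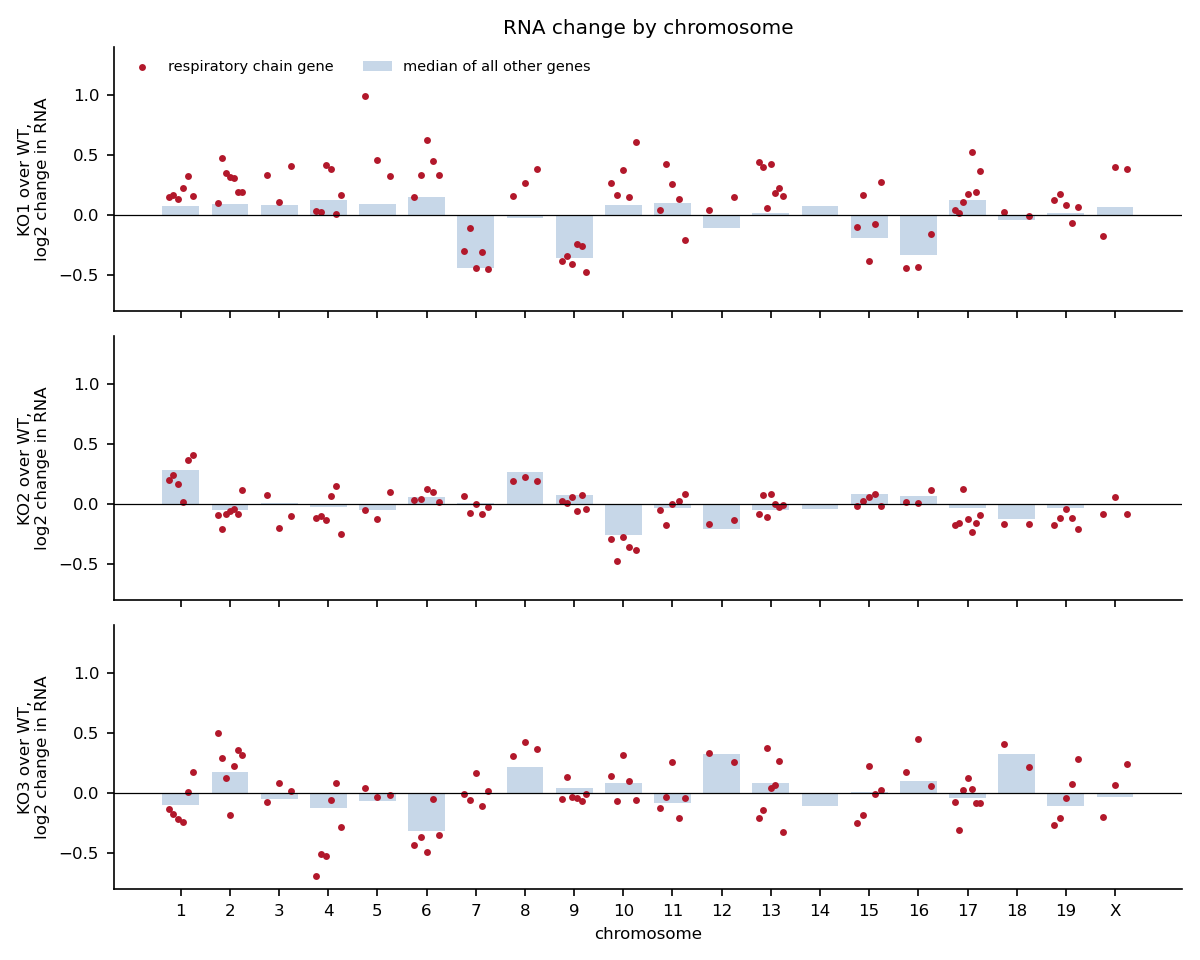
RNA log2 change against WT by chromosome in KO1, KO2 and KO3: bars give the median of all other genes on the chromosome and points the respiratory chain genes. Points lie mostly on the side of their bar where the bar is long, as on chromosomes 7, 9 and 16 in KO1, 1 and 10 in KO2 and, for KO3, 6 and 8.

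Neighbouring genes gave the same picture at a finer scale. For each member, the median log2 change of the 20 nearest other tested genes on each side was taken. Across the 88 members the correlation of a member's RNA change with this median was r = 0.80 for KO1, 0.77 for KO2 and 0.74 for KO3, a description over genes that share libraries and, in part, neighbours. By ranks (Spearman) the correlation was lower, 0.58, 0.59 and 0.64, and the signs were the same in 67, 65 and 57 of the 88. With 10 genes on each side r was 0.77, 0.77 and 0.78. Subtracting the neighbours' median lowered the SD of the members' changes from 0.28 to 0.17 in KO1, from 0.15 to 0.10 in KO2 and from 0.24 to 0.16 in KO3. Members more than 0.25 from 0 numbered 43, 8 and 27, and those more than 0.25 from their neighbours 23, 0 and 11.

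Many of the genes named above lay close to their neighbours' median. In KO1, Uqcrc1 had -0.48 against -0.42 for its neighbours, Uqcrc2 -0.45 against -0.46, Atp5j -0.44 against -0.43 and Cyc1 -0.38 against -0.44. In KO2, Sdhc had 0.41 against 0.37. In KO3, Ndufaf6 had -0.51 against -0.51 and Cycs -0.44 against -0.40. Other members went further than their surroundings, such as Atp5j2 in KO1 (0.99 against 0.58), Uqcr11 in KO1 (0.60 against 0.28), Atp5d in KO2 (-0.47 against -0.28) and Ndufa5 in KO3 (-0.49 against -0.27).

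Some moved where their neighbours hardly did. In KO1, Ndufa12, an accessory complex I subunit, had 0.38 against -0.01, Atp5g3 0.35 against 0.02, Ndufa13 0.27 against -0.12 and Uqcrq -0.21 against 0.04. After subtraction the median of the members was still 0.15 in KO1, against -0.04 in KO2 and 0.00 in KO3. Of the called members, 33 of 42 rises and 12 of 14 falls had their neighbours' sign in KO1, all 6 rises and all 8 falls in KO2, and 16 of 19 rises and 19 of 22 falls in KO3. DNA copy number was not measured, and its part in these values was not tested.

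**Figure D4:**
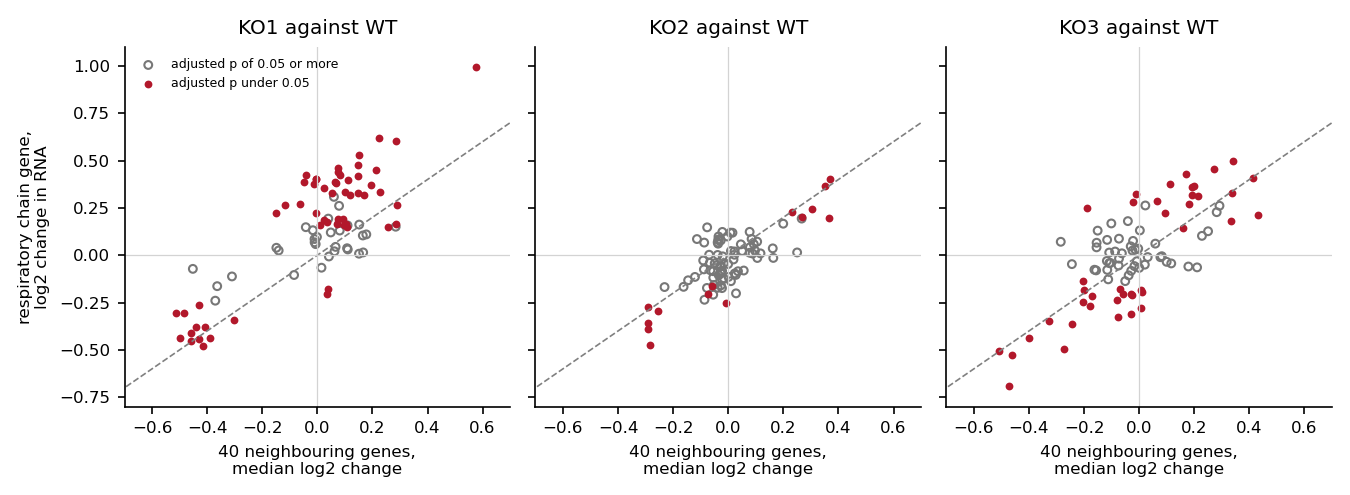
RNA log2 change of each of 88 respiratory chain genes against the median log2 change of its 40 nearest tested genes in KO1, KO2 and KO3, filled points for genes with adjusted p under 0.05, dashed line for equality. Points rise with the neighbours' median in all 3 clones (Pearson r = 0.80, 0.77 and 0.74, Spearman 0.58, 0.59 and 0.64). In KO1 they lie above the line by a median of 0.15, with Atp5j2 at 0.99 against 0.58 the highest.

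Footprint changes had the direction of the RNA changes wherever both were called. In KO1, footprints of 26 of 88 genes rose and those of 13 fell (39 called, 44.3%, against 26.9% of all genes tested). In KO2, 10 rose and 3 fell (13, or 14.8%, against 11.7%), and in KO3, 19 rose and 13 fell (32, or 36.4%, against 30.6%). The median SE in KO1, KO2 and KO3 was 0.092, 0.082 and 0.084 for the members and 0.167, 0.159 and 0.153 for all genes. As for RNA, the part of this in the shares called was not tested. The genes called in both assays, 37 for KO1, 8 for KO2 and 25 for KO3, all had the same direction in both. The same counts over all genes are not given here, so whether this is particular to the respiratory chain genes was not tested. RNA and footprint changes had r = 0.84, 0.70 and 0.83 across the 88 members, whose RNA and footprints came from the same lysates. The count in KO1 was 21 without WT replicate 1, 24 without WT replicate 2 and 21 without KO1 replicate 1, and that in KO2 was 8 without WT replicate 1. DESeq2's likelihood ratio test called fewer, 12, 5 and 10.

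By complex, footprints of complex I had 12 rises and 2 falls in KO1, 4 rises and 1 fall in KO2, and 11 rises and 7 falls in KO3. The share called was 31.1%, 11.1% and 40%, against 26.9%, 11.7% and 30.6% of all genes. Of all genes, footprints of 11.7% rose in KO1, 6.74% in KO2 and 14.9% in KO3. Atp5j2 footprints were 279 and 270.2 CPM in WT, 453 and 489 in KO1, 270.4 and 264 in KO2 and, for KO3, 246 and 274. Both KO1 libraries were far above the rest, and the rise was 0.75 ± 0.0722 (adjusted p = 6.47e-12), smaller than that of its RNA. Uqcrc1 footprints were 372 and 349 CPM in WT and 273 and 242 in KO1, a fall of 0.47 ± 0.0754 (adjusted p = 2.04e-06), and those of Uqcrc2 fell by 0.40 (adjusted p = 0.00018). Those of Ndufa8 rose by 0.45 in KO1 (adjusted p = 0.000437). Cyc1 footprints fell by 0.51 in KO1 (adjusted p = 2.95e-06), from 232 and 218 CPM to 164 and 149.

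In KO2, Atp5d footprints were 217 and 209.7 CPM against 275 and 261 in WT, a fall of 0.33 (adjusted p = 0.00165). Footprints of Ndufb3, an accessory complex I subunit, rose by 0.40 (adjusted p = 0.000706), from 132 and 141 CPM in WT to 181 and 179. Complex IV had 5 rises and no fall in KO2 (41.7% called, against 11.7% of all genes). There Cox4i1 footprints were 569 and 602 CPM against 442 and 429 in WT, a rise of 0.42 (adjusted p = 2.19e-05). In KO1 Cox4i1 footprints, at 488 and 417, overlapped those of WT (0.07, adjusted p = 0.517), so this gene did not pass for footprints in every clone. Complex III in KO2 had 1 rise for footprints (11.1% of its genes) where it had 2 falls for RNA. Uqcr11 footprints in KO2 had a change of -0.15 that did not pass (adjusted p = 0.386).

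In KO3, Atp5o footprints were 299.8 and 305 CPM against 208 and 210.3 in WT, a rise of 0.52 (adjusted p = 6.21e-08), while in KO1 they were 162 and 181, a fall of 0.33 (adjusted p = 0.00188). Cycs footprints were 270.3 and 288 CPM in KO3 against 371 and 349 in WT, a fall of 0.39 (adjusted p = 9.91e-06). Those of Ndufb6 fell by 0.49 in KO3 (adjusted p = 4.84e-05), from 120.4 and 112 CPM to 79.0 and 89.5. Those of Ndufaf4 fell by 0.65 ± 0.193 (adjusted p = 0.00833). Between the clones, footprints of 66 of 89 genes differed, against 59.5% of all genes tested, and 13 of 88 genes (14.8%, against 9.27% of all genes) were called in opposite directions in a pair of clones.

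**Figure D5:**
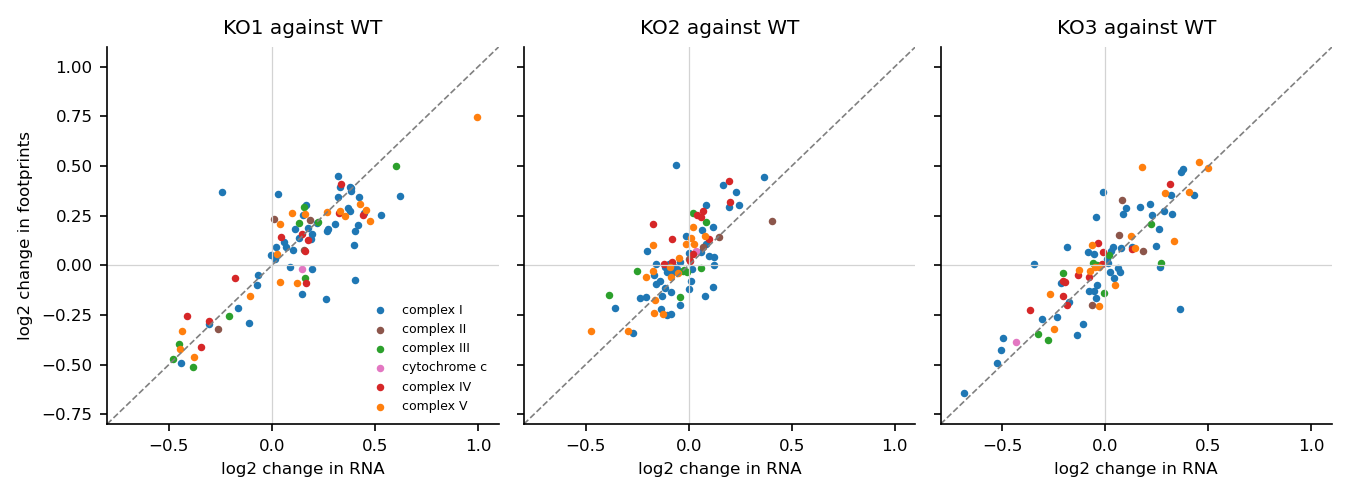
Log2 change of footprints against log2 change of RNA for the 88 respiratory chain genes in KO1, KO2 and KO3, coloured by complex, dashed line for equality, which is no change in TE. Points lie along the line in each clone (r = 0.84, 0.70 and 0.83).

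No respiratory chain gene had a called change in TE in any clone. The interaction test called 0 of the 88 genes with RNA counts in each, against 0.0942% of all genes tested in KO1, 0.0173% in KO2 and 0.104% in KO3. At an unadjusted p under 0.05 it gave 3 genes in KO1, 9 in KO2 and, for KO3, 7, and the smallest adjusted p values were 0.411, 1.0 and 0.387. Over the 88 genes with RNA counts the TE change ranged from -0.47 (Ndufaf2) to 0.62 (Ndufaf3) in KO1, from -0.24 (Ndufaf2) to 0.57 (Ndufaf3) in KO2 and from -0.57 (Ndufaf5) to 0.38 (Ndufa6) in KO3, and 5 of these 6 extremes belong to assembly factors, which had low RNA levels. The median SE of a gene was 0.112, 0.113 and 0.110, and 8, 4 and 8 genes lay more than 0.25 from 0. None of these was called, so changes of that size, and not only those near the SE, could go undetected at this depth.

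Because both assays were made from the same lysate, TE was also tested with the lysate as a block. Cox6c then passed in KO1, with a TE change of -0.25 (adjusted p = 0.0403), where 0.711% of all genes tested passed. No respiratory chain gene did in KO2 or KO3, where 0.0346% and 0.112% of all genes passed. In this gene the RNA of KO1 was 349 and 341 CPM against 308 and 307 in WT. TE differed between the clones for 0 of 88 genes (15 at an unadjusted p under 0.05, smallest adjusted p = 0.124), against 1.03% of all genes tested. With the lysate block 5 of the 88 genes differed (5.68%, against 3.42% of all genes tested with this block), namely Atp5md, Cox7c, Cox4i1, Uqcrh and Cox6c (adjusted p = 0.000276, 0.00363, 0.00655, 0.0137 and 0.0138). Their TE changes in KO1, KO2 and KO3 were -0.20, 0.28 and 0.13 for Atp5md, a small ATP synthase subunit, -0.18, 0.21 and 0.06 for Cox7c, and -0.22, 0.22 and -0.10 for Uqcrh, the complex III hinge protein. All windows of Atp5md and Cox7c have exact copies elsewhere.

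Relative to all genes, which are longer, the TE of the respiratory chain genes was high in every line. In WT, other genes of similar length had a median of 0.40 and members with no copied window 0.37. No length-matched value was taken for the clones. The median over the members relative to all genes was 0.576 and 0.568 in the WT replicates, 0.516 and 0.535 in KO1, 0.568 and 0.635 in KO2 and, for KO3, 0.582 and 0.596. Both KO1 values were the lowest of the 8 and both KO3 values lay above WT, while of the KO2 values 1 lay within the WT range and 1 above it.

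For RNA of related mitochondrial pathways, the share of genes called lay under that of all genes (46.7% for KO1, 20.5% for KO2 and 45.4% for KO3) in each list and clone, a difference that was not tested. Of 18 genes of the citric acid cycle and pyruvate dehydrogenase, RNA of 7 passed in KO1, 3 in KO2 and, for KO3, 8, of which 2, 2 and 4 were rises (38.9%, 16.7% and 44.4% called). Idh2, the mitochondrial NADP-dependent isocitrate dehydrogenase on chromosome 7, had -0.58, 0.24 and 0.25, and Suclg1, a subunit of succinyl-CoA ligase on chromosome 6, 0.16, 0.22 and -0.36. Of 45 respiratory chain assembly factors outside the symbol rule, 14, 3 and 13 passed (31.1%, 6.67% and 28.9%), of which 8, 2 and 8 were rises. Of 13 genes of ubiquinone synthesis, 4, 0 and 4 passed (30.8%, 0% and 30.8%), with 1 rise in KO1 and 3 in KO3. Among 19 genes of mitochondrial transcription and biogenesis 7, 2 and 7 passed (36.8%, 10.5% and 36.8%), of which 2, 1 and 2 were rises. In that list Gabpa, the DNA-binding subunit of the ETS factor GABP on chromosome 16, had -0.72 for KO1, 0.02 for KO2 and -0.07 for KO3, and Ppargc1a, a coactivator of mitochondrial biogenesis, had -2.81 in KO3 for RNA and -3.72 for footprints. No gene of these 4 lists passed for TE in any clone.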

How the data were processed

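RNA-seq and Ribo-seq of Hepa1-6 cells were analysed in 16 libraries, 4 lines with 2 replicates per assay. The labels name polyA RNA as the molecule of the RNA libraries, whereas their protocol describes depletion of ribosomal RNA. The values are raw counts per transcript that the authors deposited, next to a column with the number of counted codons. Per the study's methods, reads were trimmed with fastp 0.21.0, cleared of non-coding RNA and aligned to mm10 with STAR 2.7.0a, and codons at either end of the coding sequence were left out. The study tabulates uniquely mapped reads, but how reads that fit several places were counted is not given in the sources used here. From the 258 transcripts of the 96 genes, the 1 per gene with the most counts was taken, as for all genes. Counts were filtered by filterByExpr, scaled by TMM within each assay and tested by edgeR 4.0.16 (R 4.3.3) with quasi-likelihood F-tests, each clone against WT, and by a genotype-by-assay interaction for TE. Calls were made at a Benjamini-Hochberg adjusted p under 0.05 over all genes tested. As 2 replicates were measured per group, p-values describe the spread between these. CPM values of respiratory chain genes are TMM-scaled, and those of marker genes are scaled by library totals.

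Genes were chosen by symbol, and the members and gene lists were chosen with earlier results of these data known. Genes named with values were, per clone and assay, the 3 largest called rises and falls, genes called for TE or in the same direction in all clones, the highest and lowest in RNA per codon and TE of each complex in WT, the isoform sets, complex II and the cytochromes. Others were named after their values were seen, and a result that the rule names is not reported here. Positions come from GENCODE vM21 on GRCm38, the build the authors call mm10, whose annotation release was a later one. Neighbour medians used the 20 nearest tested genes on each side and, like the chromosome medians and the scan for copies, were chosen after seeing the data. The protocol in the labels gives both assays of a replicate from 1 lysate, which is the pairing of the lysate block, and their deviations from the group means had r = 0.237 in WT, 0.283 in KO1, 0.119 in KO2 and 0.112 in KO3 over 4014 genes. The fits were tested on simulated counts. Alternatives were DESeq2 1.42.0, other scaling and filters, thinned counts, blocks and leaving out each library.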

Additional observations from a re-analysis of the deposited data

Results flagged for a closer look

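The 3 clones differed from one another in RNA for 73 of 88 respiratory chain genes (against 74.0% of all genes) and in footprints for 66 of 89 (against 59.5%), and 22 genes were called for RNA in opposite directions in a pair of clones (25%, against 20.1% of all genes). The differences below are of genes among those 22, so they restate that choice and are given as a description. The log2 difference between clones was 1.12 for Ndufa5 (KO1 over KO3), 0.99 for Uqcr11 (KO1 over KO2), 0.95 for Ndufb6 (KO1 over KO3), 0.89 for Atp5o (KO3 over KO1) and 0.70 for Ndufa4 (KO1 over KO3). It was 0.65 for Ndufa12 and 0.64 for Atp5d (both KO1 over KO2), 0.62 for Atp5j and 0.60 for Cyc1 (both KO3 over KO1), 0.58 for Cycs (KO1 over KO3) and 0.56 for Atp5b (KO1 over KO2). Smaller differences were 0.50 for Ndufa8 (KO1 over KO3), 0.42 for Ndufa10 (KO2 over KO3), 0.38 for Cox8a and 0.35 for Cox6c (both KO1 over KO3). Each KO line is 1 clone, so the deletion and other properties of a clone cannot be told apart in any single comparison.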

How the results depend on the processing

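None of the 195 called RNA and footprint changes of the members took the other sign in the refits (0 of 2535 values), but the medians for RNA in KO3 and footprints in KO2, which lie near 0, took either sign. The footprint counts of called genes moved most, to 12, 5 and 10 in KO1, KO2 and KO3 with DESeq2's likelihood ratio test, and to 7 in KO2 and 17 in KO3 with libraries thinned to the smallest total. TE calls were 1 in KO1 with the lysate block, and for the difference between clones 1 without the filter on low counts, 3 with the replicate block and 5 with the lysate block. No label says that a replicate number marks a shared day or batch, and r between same-numbered replicates of the same assay in different lines ran from -0.0024 to 0.372, in part as large as within a lysate and not above 0.1 in every pair, so the number was not used as a pairing. The replicate block moved no other count of calls by over 1.5 times. Medians minus all genes moved to 0.12 relative to the chromosome for RNA in KO1, 0.025 for RNA in KO3 without a filter, 0.091 thinned and 0.12 relative to the chromosome for footprints in KO1, and 0.021 relative to the chromosome for footprints in KO2. For KO3 footprints they were 0.027 without a filter, 0.046 relative to the chromosome and 0.049 without copied genes, and for TE in KO1 -0.020 without copied genes. The cause was not tested. The reference to the chromosome and the removal of copied genes were chosen after seeing the data.

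Leaving out 1 library at a time, called RNA counts were 42 to 53 in KO1, 6 to 18 in KO2 and 32 to 37 in KO3, with medians of 0.13 to 0.15, -0.054 to -0.0023 and -0.013 to 0.032. Footprint counts were 21 to 38, 8 to 13 and 22 to 25, with medians of 0.12 to 0.18, -0.0075 to 0.050 and 0.0036 to 0.043. TE medians were -0.069 to -0.021, 0.04 to 0.08 and 0.02 to 0.08, with 0 called. Clones differed in 70 to 73 genes for RNA, 53 to 65 for footprints and 0 to 2 for TE. The WT TE median was 0.57 to 0.58. A line left with 1 library is assumed to vary like the others.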

Other observations

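Ndufa4l2 had 13 and 5 footprint counts in the WT libraries, 11 and 1 in KO1, 12 and 5 in KO2 and, for KO3, 11 and 6, and no RNA count in any library. Its TE is therefore without a value.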
